A study of Mus musculus with 12 samples.

Results

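Malat1, Neat1, Miat, Sox2ot, Rmst and Pantr1 are long noncoding RNAs with known roles in the nucleus or in neural cells. The 6 genes were taken by name from the 47069 genes of the table, and all 6 were measured in every library and passed the filter on low values. The table holds stranded total RNA-seq of Pdgfra/GFP+ cells, sorted from mice in which a histone 2B-GFP fusion is expressed from the Pdgfra locus, the usual marker of oligodendrocyte precursor cells (OPCs). All 4 groups came from this Pdgfra-H2BGFP knock-in line, kept heterozygous, and none received a treatment. The groups were E13.5 (fore)brain, E13.5 spinal cord, P7 (fore)brain and P7 spinal cord, with 3 libraries each. The comparison asks whether these RNAs differ between an embryonic and a postnatal stage and between the regions.

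Cells of several animals, of both sexes, were pooled for every library. Cells were freed from embryonic tissue by mechanical means and from postnatal tissue with papain, so age and dissociation cannot be told apart. The GFP protein outlasts Pdgfra RNA, and cells that have begun to differentiate are therefore also sorted. Pdgfra and the other 7 OPC markers were detected in every library. Their summed level in CPM (counts scaled to library size) was 822 to 1454 CPM in E13.5 brain and 529 to 805 CPM in E13.5 spinal cord. At P7 it was 9093 to 9793 CPM in brain and 9449 to 9589 CPM in spinal cord.

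Malat1 and Neat1 are nuclear RNAs transcribed from neighbouring genes. Malat1 gathers at nuclear speckles, where splicing factors are stored, and the long form of Neat1 is the scaffold of paraspeckles. Miat carries repeated copies of a splicing signal that bind splicing factors. Sox2ot overlaps the gene of the stem cell factor Sox2, Rmst binds SOX2 protein and acts in neurogenesis, and Pantr1 is transcribed divergently from Pou3f3, the gene of a POU factor of the developing cortex.

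The sequences that set the nuclear members apart are shown first, from GENCODE M21 transcript models on GRCm38. Malat1 (ENSMUSG00000092341, chr19:5795690-5802672, minus strand) and Neat1 (ENSMUSG00000092274, chr19:5824708-5845478, minus strand) are each a single exon in the longest model, and 22.0 kb lie between the genes. Both RNAs lack a usual poly(A) tail in their long form and end in a triple helix formed by U-rich runs and an A-rich end. The 120 bases up to that A-rich end are given for Malat1 (chr19:5795982-5796101) and Neat1 (chr19:5824708-5824827), both in exon 1 of 1. Capitals mark the 3 runs of at least 10 bases that occur in both stretches, of 13, 16 and 11 bases.
Malat1: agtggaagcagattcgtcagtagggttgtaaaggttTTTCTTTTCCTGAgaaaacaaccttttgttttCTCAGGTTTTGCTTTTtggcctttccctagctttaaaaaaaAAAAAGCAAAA
Neat1: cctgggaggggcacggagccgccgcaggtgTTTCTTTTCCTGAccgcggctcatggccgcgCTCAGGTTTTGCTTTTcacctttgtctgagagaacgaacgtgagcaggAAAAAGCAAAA
The A-rich run AAAAAGCAAAA, searched on the strand of the RNA, was found once in each of these and in none of the other 4 members. It was in 65 of the 13368 other long noncoding RNA genes (0.486%), counting the longest model of each. The Neat1 model of 20771 bases stops at this run, whereas the Malat1 model goes on for 292 bases beyond it, a stretch that includes the small tRNA-like RNA cut from its end.

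Miat (ENSMUSG00000097767, chr5:112213228-112229395, minus strand) is shown for its copies of ACTAAC, a branch point signal of splicing. Its longest model (9163 bases) held 11 copies on the RNA strand, or 1.20 per kb, against 4 in Neat1, 1 in Pantr1 and 0 in Malat1, Sox2ot and Rmst. Of 7496 other models of at least 1000 bases, 27.3% held the motif at all and 65 (0.867%) held it at least as often per kb. The 151 bases around the densest cluster (chr5:112217309-112217459, exon 7 of 7) hold 4 copies, in capitals.
Miat: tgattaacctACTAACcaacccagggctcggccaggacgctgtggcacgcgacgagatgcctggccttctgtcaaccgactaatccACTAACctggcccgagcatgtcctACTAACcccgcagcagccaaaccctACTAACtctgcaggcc

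Rmst and Sox2ot contain miRNA genes on their own strand, and the mature sequences are those of RefSeq on GRCm38.p6, with the seed (bases 2 to 8) in capitals. Mir135a-2 (chr10:92072086-92072185) and Mir1251 (chr10:92137140-92137223) lie in Rmst (chr10:92071037-92165170, minus strand), outside its exons. Mir1897 (chr3:34638464-34638542) lies within an exon of Sox2ot (ENSMUSG00000105265, chr3:34104270-34682619, plus strand). The 5 seeds all differ.
mmu-miR-135a-5p: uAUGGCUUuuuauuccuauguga
mmu-miR-135a-2-3p: uGUAGGGAuggaagccaugaa
mmu-miR-1251-5p: aCUCUAGCugccaaaggcgcu
mmu-miR-1251-3p: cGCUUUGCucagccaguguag
mmu-miR-1897-3p: uCAACUCGuucuguccggugag
Pantr1 (ENSMUSG00000060424, chr1:42590782-42694842, minus strand) starts 0.925 kb from Pou3f3, which runs the other way. Rmst is listed in the table under ENSMUSG00000097348, which the study's own annotation pairs with Rmst, whereas M21 gives the gene another identifier. Its position and length are those of the M21 gene, so its values per kb hold only if both identifiers cover the same exons.

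Between 12.6 M and 38.8 M reads per library were recovered from the table, and 3 reads are worth 0.0792 to 0.506 CPM. One library, E13.5 spinal cord replicate 3, stood apart from the rest. Protein-coding genes took 40.9% of its reads, against 82.4% to 91.1% in the other 11, and Gm42418, a gene model that overlaps ribosomal RNA, took 31.1%. Its scaling factor was 0.472, against 0.955 to 1.20 in the others. Malat1 in this library was at 25.7% of the mean of replicates 1 and 2, Sox2ot at 42.6%, Neat1 at 46.2% and Miat at 57.2%, whereas Rmst was at 81.8% and Pantr1 at 123%. Results on E13.5 spinal cord are given with and without it where a call changed, and in some other cases. At P7, replicates 1 and 2 of each region were closer to each other than to replicate 3. The SD of their log2 ratios was 0.0739 in brain and 0.0738 in spinal cord, against 0.179 to 0.219 for pairs with replicate 3. Their counts still differed by more than sampling noise, with a median chi-square 1.36 and 1.55 times that expected, and they were kept as separate samples.

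Per kb of exon, Malat1 was by far the most abundant member. Its group means were 1574 to 1970 CPM per kb, and it ranked 1st to 19th among all genes of a library by CPM. Miat followed at 22.9 to 43.5 CPM per kb and Neat1 was low throughout, at 0.859 to 1.63 CPM per kb. Rmst ranged from 0.0678 to 12.8, Sox2ot from 1.57 to 12.3 and Pantr1 from 2.22 to 9.19 CPM per kb. At E13.5 Rmst was above Pantr1 in both regions on this scale, and at P7 it was the lowest of the 6.

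**Figure D1:**
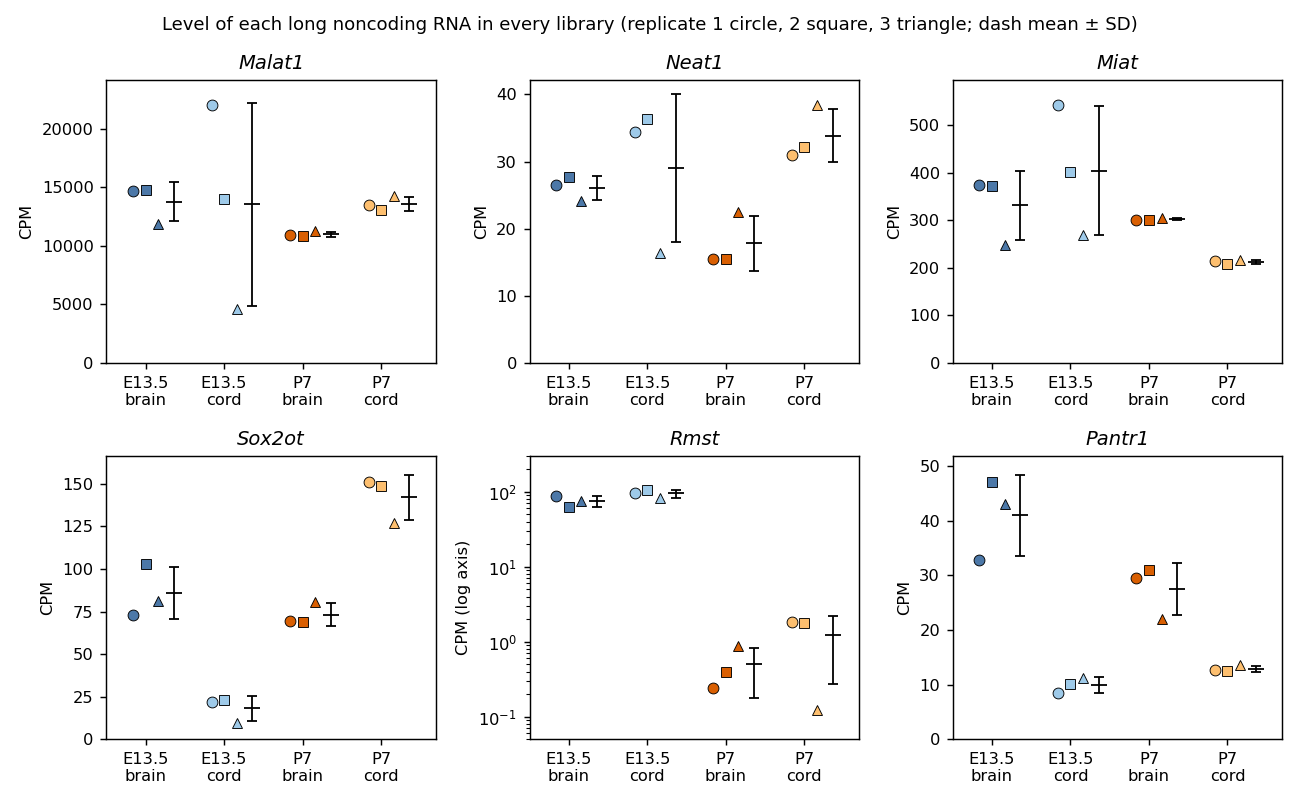
Level of each member in CPM (vertical axis, from 0 except for Rmst, where it is logarithmic) in the 12 libraries of the 4 groups; symbols are replicates and the dash is the group mean ± SD. Rmst drops from 63.7 to 105 CPM at E13.5 to under 2 CPM at P7, Sox2ot is lowest in E13.5 spinal cord, and Malat1 spans 4619 to 21970 CPM in E13.5 spinal cord.

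A gene was called where its change on the log2(CPM + 0.5) scale exceeded 2-fold with a Benjamini-Hochberg adjusted p under 0.05 in limma. For P7 minus E13.5, 2 of the 6 members were called over both regions (Rmst lower, Sox2ot higher), where 29.4% of the 18319 tested genes were called. Within brain 1 member was called (Rmst) against 27.7% of all genes. In spinal cord 2 were called (Rmst and Sox2ot) against 35.1%. For brain minus spinal cord, 1 member was called over both ages (Pantr1) against 4.20% of all genes. At E13.5 2 were called (Sox2ot and Pantr1) against 8.71%, and at P7 1 was called (Pantr1) against 6.62%. The interaction of region and age, brain minus spinal cord at P7 less the same difference in the embryo, was called for 1 member (Sox2ot) against 16.3% of all genes. Malat1, Neat1 and Miat were called in none of the 7 comparisons in limma, nor by limma-voom, edgeR or DESeq2 on the recovered reads. Of these 21 tests 8 had an unadjusted p under 0.05. The median change of all genes was between -0.24 and 0.12 in these comparisons.

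**Figure D2:**
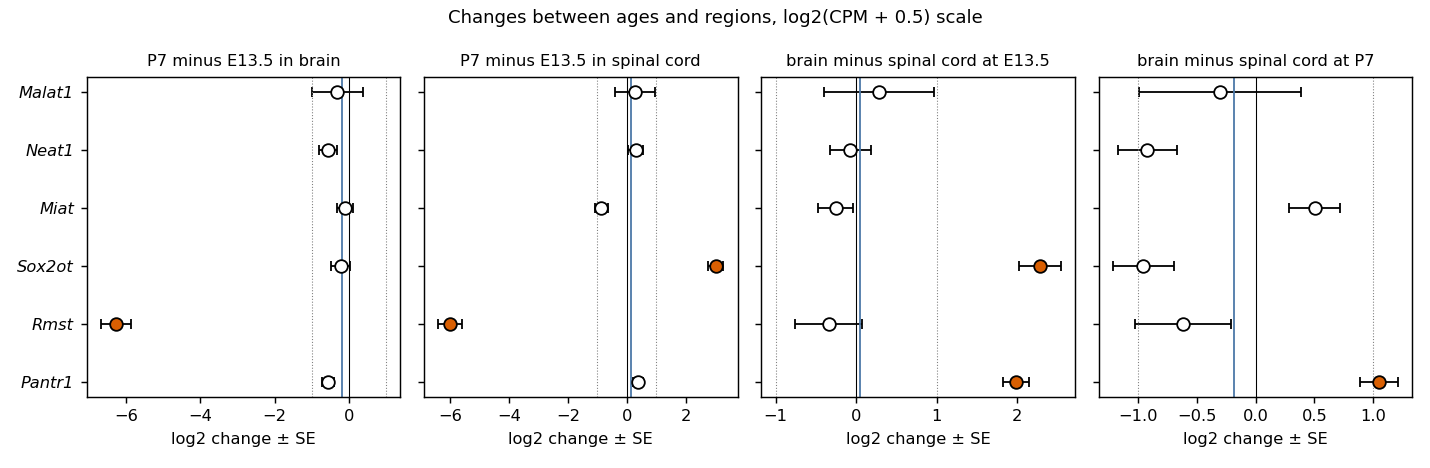
Change of each member on the log2(CPM + 0.5) scale (horizontal axis) ± SE for both ages within each region and both regions within each age; filled points were called, dotted lines mark 2-fold and the blue line is the median of all genes. Rmst is at -6.27 and -6.00 in the age comparisons, and Sox2ot is at 2.28 at E13.5 and -0.95 at P7 in the region comparisons.

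Rmst, which acts with SOX2 in the choice of neural fate, showed the largest change of the 6. It fell with age in both regions. In E13.5 brain it was at 87.0, 63.7 and 75.0 CPM, and in E13.5 spinal cord at 97.6, 105 and 83.0 CPM. In P7 brain it was at 0.242, 0.397 and 0.871 CPM. In P7 spinal cord it was at 1.84, 1.76 and 0.124 CPM. No P7 library came near any E13.5 library. The P7 values rest on 4 to 68 reads each, and the E13.5 values on 492 to 2368. The ratio of the group means was 149 in brain and 76.9 in spinal cord. With 0.5 CPM added before taking logs, which makes the change of such a low gene look smaller, the log2 change was -6.27 ± 0.41 in brain (SE, limma adjusted p 6.2e-08) and -6.00 ± 0.41 in spinal cord (limma adjusted p 5.5e-08). In bulk samples such as these, fewer cells that express a gene and less of its RNA per cell cannot be told apart.

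Between regions Rmst did not pass at either age. At E13.5 the difference was -0.34 ± 0.41 (limma adjusted p 0.563), with overlapping libraries. At P7 it was -0.62 ± 0.41 (limma adjusted p 0.289), and replicate 3 of spinal cord lay below all 3 brain libraries while replicates 1 and 2 lay above them. Without that replicate the P7 difference was -1.24 (limma adjusted p 0.0028) and was called.

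Other rows of the Rmst locus held far fewer reads. Gm27544 and Gm27588 are short RNA models inside Rmst on its strand, and Gm27544 shares 50 exon bases with it. Gm27544 was at 1.27 to 2.99 CPM in the 6 E13.5 libraries and at 0 to 0.0540 CPM in the 6 P7 libraries. Gm27588, which shares no exon base with Rmst, was at 1.19 to 3.56 CPM at E13.5 and had no read in any P7 library. Both rows are therefore also higher in every E13.5 library. The hairpin of Mir1251 had 9 to 14 reads in E13.5 brain, 0 to 18 in E13.5 spinal cord and 0 or 1 in each P7 library. That of Mir135a-2 had 4 to 12 reads in E13.5 brain, 1 to 8 in E13.5 spinal cord and 0 or 1 at P7. Reads of this library type on a hairpin do not measure the mature miRNA. An antisense gene, Gm26700, covers 26.3% of the Rmst exon bases but averaged only 0.0706 CPM.

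Sox2ot was the member whose region difference changed with age. In E13.5 brain it was at 73.2, 103 and 81.2 CPM, and in E13.5 spinal cord at 22.0, 23.2 and 9.62 CPM. In P7 brain it was at 69.5, 69.0 and 80.7 CPM. In P7 spinal cord it was at 151, 148 and 127 CPM. The libraries of P7 spinal cord were thus the highest and those of E13.5 spinal cord the lowest, without overlap, while the brain groups overlapped. In spinal cord Sox2ot rose by 3.02 ± 0.26 (log2, SE, limma adjusted p 4.0e-07), and the group means differed 7.79-fold. Without E13.5 spinal cord replicate 3 the mean of that group was 22.6 CPM in place of 18.3 CPM. The rise was then 2.62 ± 0.13 (limma adjusted p 4.3e-09) and was called. In brain the change was -0.22 ± 0.26 (limma adjusted p 0.482). Over both regions the average change was 1.40 ± 0.18 (limma adjusted p 1.5e-05), and 1.20 ± 0.09 without E13.5 spinal cord replicate 3 (limma adjusted p 6.3e-08).

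The means of the regions stood in opposite order at the 2 ages. At E13.5 Sox2ot was higher in brain, by 2.28 ± 0.26 (limma adjusted p 3.3e-05), a 4.70-fold ratio of the means. Without E13.5 spinal cord replicate 3 it was higher by 1.89 ± 0.13 (limma adjusted p 6.9e-07) and was called. At P7 the difference was -0.95 ± 0.26, with every spinal cord library above every brain library. The adjusted p was 0.0148 in limma, but the change was under 2-fold and it was not called. Without P7 brain replicate 3 it was -1.03, and without P7 spinal cord replicate 3 it was also -1.03, and both were called. Some other settings gave smaller negative differences that were not called. The P7 difference was -0.76 under TMM rescaling (limma adjusted p 0.0583). With P7 replicates 1 and 2 averaged it was -0.88 (limma adjusted p 0.133). The interaction of region and age was -3.24 ± 0.36 (limma adjusted p 3.9e-05). Without E13.5 spinal cord replicate 3 it was -2.84 ± 0.18 (limma adjusted p 7.2e-07).

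Sox2, the transcription factor of neural stem cells and OPCs, lies within an intron of Sox2ot on the same strand, and they share no exon base. In the embryo Sox2 was at 98.5 ± 17.9 CPM in brain and 23.7 ± 0.965 CPM in spinal cord (SD, n = 3). At P7 it was at 169.5 ± 9.76 CPM in brain and 139 ± 13.1 CPM in spinal cord. Like Sox2ot it was higher in brain at E13.5 (2.02 ± 0.12, limma adjusted p 1.7e-07) and higher at P7 than at E13.5 in spinal cord (2.52 ± 0.12, limma adjusted p 2.9e-09). At P7 the region difference of Sox2 was 0.29 ± 0.12 (limma adjusted p 0.0951), where that of Sox2ot was -0.95. The interaction of region and age was also called for Sox2, at -1.73 ± 0.17 (limma adjusted p 1.7e-05).

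The ratio of Sox2ot to Sox2 within a library does not depend on how libraries were scaled. It was 0.820 to 0.911 in E13.5 brain and 1.01 to 1.03 in P7 spinal cord. In P7 brain it was 0.390 to 0.508, below all libraries of those groups. In E13.5 spinal cord it was 0.911 and 0.949 in replicates 1 and 2 and 0.425 in replicate 3, the library that stood apart. Averaged over regions the log2 ratio changed by -0.26 with age (exact two-sided permutation p 0.545, adjusted 0.615 over 6 ratio tests). Averaged over ages it differed by -0.49 between brain and spinal cord (exact permutation p 0.09, adjusted 0.18). Without E13.5 spinal cord replicate 3 the region difference was -0.67 (exact permutation p 0.01, unadjusted).

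Other rows lie in the introns of Sox2ot. Gm42692, on its strand, was at 15.6 ± 2.36 CPM in brain and 2.92 ± 1.66 CPM in spinal cord at E13.5 (SD, n = 3). At P7 it was at 9.42 ± 1.71 CPM in brain and 23.1 ± 2.55 CPM in spinal cord. This is the same order of groups as for Sox2ot. Gm34599, also on its strand, was highest in E13.5 brain, at 5.35 ± 1.12 CPM, and at 0.933 to 1.16 CPM in the means of the other 3 groups. Gm20515, on the other strand, was at 0.133 to 1.29 CPM in the E13.5 libraries and 2.06 to 4.29 CPM in the P7 libraries. The hairpin of Mir1897 had no read in any library.

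Pantr1 was higher in brain than in spinal cord at both ages. In E13.5 brain it was at 32.7, 47.1 and 43.1 CPM, and in E13.5 spinal cord at 8.40, 10.05 and 11.3 CPM. In P7 brain it was at 29.6, 30.9 and 22.0 CPM. In P7 spinal cord it was at 12.6, 12.4 and 13.6 CPM. No group overlapped its neighbour in this order of E13.5 brain, P7 brain, P7 spinal cord and E13.5 spinal cord. The difference was 1.99 ± 0.16 at E13.5 (log2, SE, limma adjusted p 2.4e-06) and 1.05 ± 0.16 at P7 (limma adjusted p 0.00050). With the deposited scaling the P7 difference lay close to the 2-fold limit. Under TMM rescaling it was 1.24 (limma adjusted p 0.00018) and was called. With the deposited scaling it was 0.96 with P7 replicates 1 and 2 averaged into 1 sample. It was 0.99 without P7 brain replicate 1 and 0.96 without P7 brain replicate 2. In these 3 settings it was not called.

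With age Pantr1 did not pass in either region. The change was -0.57 ± 0.16 in brain (limma adjusted p 0.0091, under 2-fold) and 0.37 ± 0.16 in spinal cord (limma adjusted p 0.0586). Without E13.5 spinal cord replicate 3 the spinal cord change was 0.46 ± 0.17 (limma adjusted p 0.0224, under 2-fold). The interaction of region and age was -0.94 ± 0.23 (limma adjusted p 0.0066), under 2-fold. It was called without E13.5 spinal cord replicate 3 (-1.03) and without E13.5 brain replicate 1 (-1.09). The same held without P7 brain replicate 2 (-1.03) and with P7 replicates 1 and 2 averaged (-1.03). Under TMM rescaling with no library left out the interaction was -0.75 (limma adjusted p 0.0266), under 2-fold.

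Pou3f3, on the other side of the shared start region, was at 166 ± 15.5 CPM in brain and 44.8 ± 8.18 CPM in spinal cord at E13.5 (SD, n = 3). At P7 it was at 260.3 ± 35.6 CPM in brain and 139 ± 9.44 CPM in spinal cord. It too was higher in brain, by 1.89 ± 0.14 at E13.5 (limma adjusted p 1.2e-06). At P7 the difference was 0.90 ± 0.14 (limma adjusted p 0.00059), under 2-fold. With age in spinal cord Pou3f3 rose by 1.63 ± 0.14 (limma adjusted p 4.9e-07) and was called, where Pantr1 changed by 0.37 ± 0.16 and was not. In brain Pou3f3 changed by 0.64 ± 0.14, under 2-fold. The ratio of Pantr1 to Pou3f3 was 0.216 to 0.262 in E13.5 brain and 0.166 to 0.319 in E13.5 spinal cord. At P7 it was 0.1001 to 0.112 in brain and 0.0858 to 0.106 in spinal cord. Every P7 library lay below every E13.5 library of either region. The log2 ratio changed by -1.24 with age (exact two-sided permutation p 0.005, the smallest that 400 splits can give, adjusted 0.03 over 6 tests). Between regions it differed by 0.12 (exact permutation p 0.445, adjusted 0.615).

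**Figure D3:**
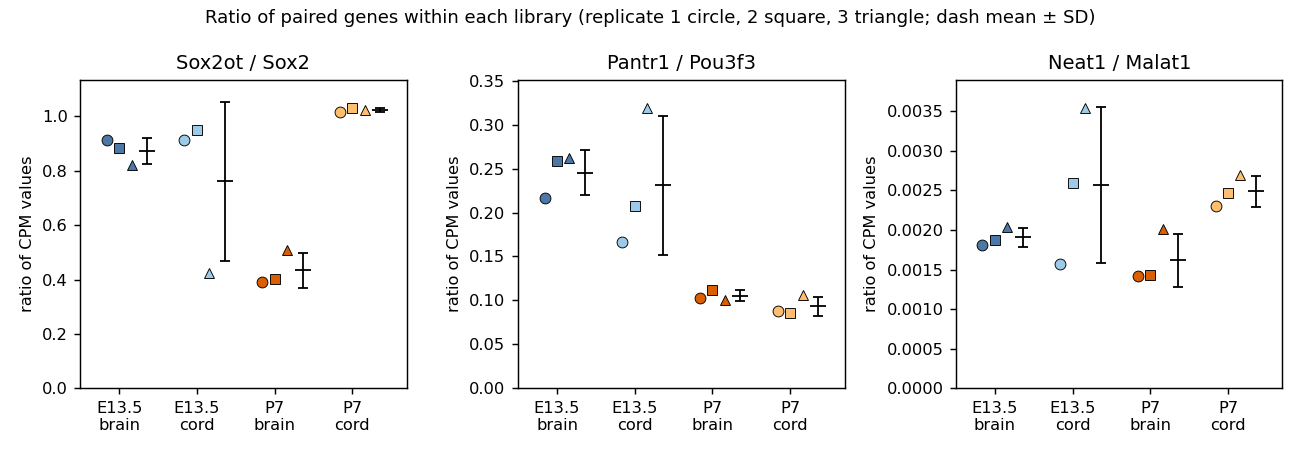
Ratio of the CPM values of paired genes (vertical axis, from 0) in the 12 libraries of the 4 groups; symbols are replicates and the dash is the mean ± SD. Pantr1/Pou3f3 is 0.166 to 0.319 at E13.5 and 0.0858 to 0.112 at P7; Sox2ot/Sox2 is 0.390 to 0.508 in P7 brain and 1.01 to 1.03 in P7 spinal cord.

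Malat1 did not pass in any comparison. In brain it was at 14651, 14781 and 11832 CPM at E13.5 and at 10940, 10810 and 11233 CPM at P7. In P7 spinal cord it was at 13450, 13034 and 14226 CPM. In E13.5 spinal cord it was at 21970, 14004 and 4619 CPM, so that the highest and the lowest value of the series came from this group. The group means differed at most 1.25-fold. The change with age was -0.32 ± 0.69 in brain (limma adjusted p 0.707) and 0.27 ± 0.69 in spinal cord (limma adjusted p 0.742), and these errors leave changes of 2-fold within reach. Without E13.5 spinal cord replicate 3 the SE fell to 0.27 and 0.30, the spinal cord change was -0.37 and no comparison passed. Gm37376, antisense to 6.49% of the Malat1 exon, averaged 6.83 CPM.

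Neat1 was lowest in P7 brain, at 15.5, 15.5 and 22.6 CPM. In P7 spinal cord it was at 31.0, 32.1 and 38.3 CPM. At E13.5 it was at 26.5, 27.7 and 24.1 CPM in brain and 34.4, 36.4 and 16.4 CPM in spinal cord. At P7 every spinal cord library lay above every brain library. The difference was -0.92 ± 0.25 (limma adjusted p 0.0153), under 2-fold, and -1.10 and called without P7 brain replicate 3. Under TMM rescaling it was -0.73 (limma adjusted p 0.0604). With P7 replicates 1 and 2 averaged it was -0.88 (limma adjusted p 0.118). The change with age was -0.56 ± 0.25 in brain (limma adjusted p 0.0711) and 0.29 ± 0.25 in spinal cord (limma adjusted p 0.311). At E13.5 the region difference was -0.07 ± 0.25 (limma adjusted p 0.857). Neat1 was low in E13.5 spinal cord replicate 3, and without it the change in spinal cord was -0.070 ± 0.15 (limma adjusted p 0.680) and the region difference at E13.5 was -0.43 ± 0.15 (limma adjusted p 0.0322, under 2-fold). Over both ages the region difference was -0.50 ± 0.18 (limma adjusted p 0.0584), and -0.68 ± 0.10 without that library (limma adjusted p 0.00032, under 2-fold). The interaction of region and age was -0.85 ± 0.35 (limma adjusted p 0.0744). It was called without E13.5 spinal cord replicate 1 (-1.01), without E13.5 spinal cord replicate 2 (-1.05) and without P7 brain replicate 3 (-1.02), and was -0.49 without E13.5 spinal cord replicate 3. The ratio of Neat1 to Malat1 differed between regions by -0.49 on the log2 scale (exact two-sided permutation p 0.04, adjusted 0.12 over 6 tests), which does not pass the adjustment. With age it changed by -0.11 (exact permutation p 0.615, adjusted 0.615).

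Of 9 genes of paraspeckle proteins, all tested, 2 fell with age over both regions and 7 did not pass, where 29.4% of all tested genes were called. Hnrnph3, an RNA-binding protein, fell by 1.13 ± 0.13 (log2, SE, limma adjusted p 6.2e-06). The median change of the 9 was -0.40, against -0.04 for all genes. Between regions none of the 9 was called in limma, limma-voom, edgeR or DESeq2, and 4 at E13.5 and 3 at P7 had an unadjusted p under 0.05 in limma. Of 9 genes of nuclear speckle and splicing proteins, none was called in any of the 7 comparisons in limma, limma-voom, edgeR or DESeq2. Over both regions 5 of them had an unadjusted limma p under 0.05 with age, and their median change was -0.0059.

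In E13.5 brain Miat was at 374, 373 and 248 CPM. In spinal cord of that age it was at 541, 402 and 270 CPM. In P7 brain it was at 301, 301 and 305 CPM, and in P7 spinal cord at 215, 208 and 216 CPM. All 3 P7 spinal cord libraries lay below all other libraries. In spinal cord the change with age was -0.87 ± 0.22 (limma adjusted p 0.0032), under 2-fold. Without E13.5 spinal cord replicate 3, in which Miat was lowest of its group, it was -1.13 ± 0.16 (limma adjusted p 4.5e-05) and was called. With all 12 libraries it was also called under median-ratio rescaling (-1.01, limma adjusted p 0.0011), quantile normalization (-1.14, limma adjusted p 0.00043) and the replicate block within each age (-1.20). In brain the change was -0.11 ± 0.22 (limma adjusted p 0.679). At E13.5 the region difference was -0.25 ± 0.22 (limma adjusted p 0.402). Without E13.5 spinal cord replicate 3 it was -0.52 ± 0.16 (limma adjusted p 0.0215, under 2-fold). The interaction of region and age was 0.76 ± 0.31 (limma adjusted p 0.0666). Without the same library the interaction was 1.02 ± 0.22 (limma adjusted p 0.0021) and was called. It was also called with all libraries under median-ratio rescaling (1.09) and quantile normalization (1.07). The antisense gene Gm26953 covers 24.3% of the Miat exon bases and averaged 0.153 CPM.

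Of 5 genes of splicing factors that bind Miat, 1 rose and 1 fell with age over both regions, where 29.4% of all tested genes were called. Qk, the RNA-binding protein quaking of oligodendrocytes, rose by 2.48 ± 0.13 over both regions (log2, SE, limma adjusted p 2.1e-09). In brain it rose by 1.81 ± 0.18 (limma adjusted p 2.3e-06), from 593 ± 109 to 2054 ± 119 CPM (SD, n = 3). In spinal cord it rose by 3.14 ± 0.18 (limma adjusted p 9.9e-09), from 360.1 ± 54.1 to 3165 ± 156 CPM. Celf3, a factor of neurons, fell by 1.28 ± 0.12 (limma adjusted p 8.0e-07). In spinal cord Celf3 fell by 1.71 ± 0.17 (limma adjusted p 1.7e-06), and in brain it did not pass.

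**Figure D4:**
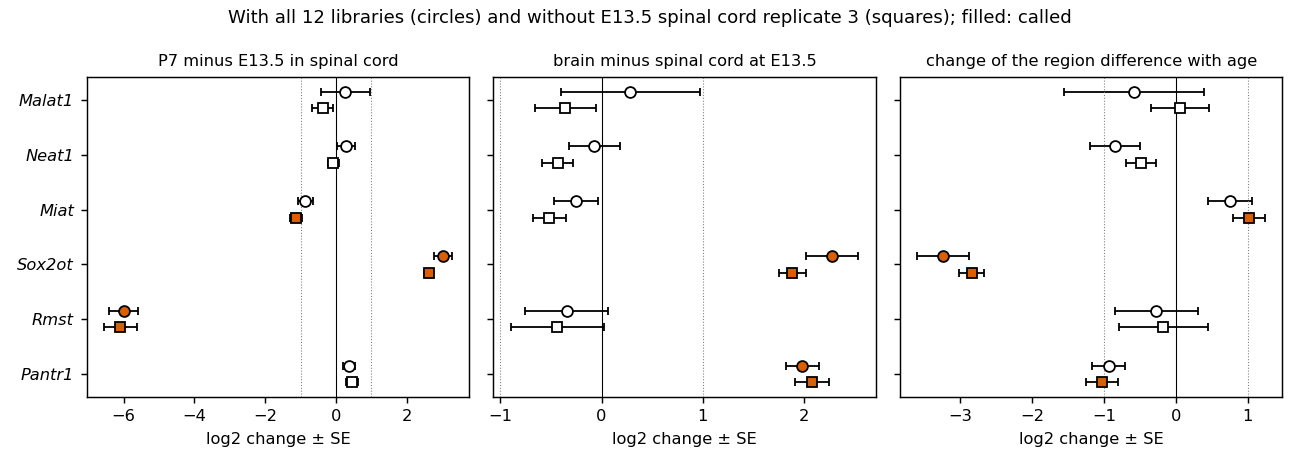
Change of each member ± SE on the log2(CPM + 0.5) scale (horizontal axis) in 3 of the 5 comparisons that use E13.5 spinal cord (age in spinal cord, region at E13.5 and the interaction), with all 12 libraries (circles) and without replicate 3 of that group (squares); filled points were called and dotted lines mark 2-fold. Miat goes from -0.87 to -1.13 in spinal cord, Malat1 from 0.27 to -0.37, and Rmst, Sox2ot and Pantr1 keep their calls in the first 2 panels.

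Markers of other cell types moved with age as well. The summed level of 8 markers of myelinating oligodendrocytes was 34.9 to 88.0 CPM at E13.5, 1926 to 4533 CPM in P7 brain and 20387 to 27366 CPM in P7 spinal cord, and Opalin, one of them, was at 0 in every E13.5 spinal cord library. That of 8 markers of vascular and leptomeningeal cells was 5934 to 8993 CPM in E13.5 brain, 11346.5 to 12743 CPM in E13.5 spinal cord and 1243 to 2674 CPM at P7. That of 10 neuronal markers was 803 to 1127 CPM at E13.5 and 461 to 550 CPM at P7, but they did not all fall. In brain 2 of the 10 were called lower at P7, where 27.7% of all tested genes were called. In spinal cord 6 were called lower and 1 higher, where 35.1% were called. The mean of Tubb3 fell from 329 to 38.1 CPM in brain, and that of Elavl3 rose from 59.9 to 168 CPM in spinal cord. For 8 markers of radial glia and astrocytes the summed level was 1232 to 1720 CPM at E13.5 and 1077 to 1958 CPM at P7. These overlapping sums hide changes in opposite directions. Over both regions 6 of the 8 were called higher at P7 and 1 lower, with a median change of 1.74 (log2), where 29.4% of all tested genes were called. The lower one was Gja1 (-3.30 ± 0.10, limma adjusted p 4.4e-11). Endothelial markers (6 genes) summed to 49.8 to 126 CPM at E13.5 and 21.3 to 36.3 CPM at P7. Microglial markers (8 genes) summed to 19.9 to 33.1 CPM in E13.5 brain, 46.6 to 74.2 CPM in E13.5 spinal cord, 32.2 to 67.1 CPM in P7 brain and 16.4 to 25.2 CPM in P7 spinal cord. At E13.5 most of the sum came from 1 gene, Tmem119. Its mean was 17.4 CPM of a summed 25.5 CPM in brain and 44.0 of 58.3 CPM in spinal cord. At P7 Tmem119 was at 6.63 CPM in brain and 10.9 CPM in spinal cord. The size of the sums at E13.5 therefore rests on this gene. The means of the other markers were also higher in spinal cord at E13.5, such as Csf1r at 5.65 CPM against 2.33 CPM in brain. The exception was P2ry12, at 0.827 CPM in spinal cord and 1.58 CPM in brain. Of the markers tested, 2 were called higher in spinal cord at E13.5, where 8.71% of all tested genes were called. Of the 7 microglial markers tested, 6 were called higher in brain than in spinal cord at P7, where 6.62% of all tested genes were called. With age in brain 6 were called higher at P7 and 1 lower, where 27.7% of all tested genes were called. The median differences were 1.56 and 1.73 (log2). Of the 8 OPC markers, 5 were called higher in brain than in spinal cord at E13.5, where 8.71% of all tested genes were called. At P7 none was called between regions, against 6.62% of all tested genes. The part of OPCs and of these other cells in the changes and region differences of the 6 members was not tested.

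Among a list of 29 other well-known long noncoding RNAs, 25 were tested. With age over both regions 14 of them fell, 3 rose and 8 did not pass, where 29.4% of all tested genes were called. Their median change was -1.25. The largest changes were those of H19 (-4.75 ± 0.21, limma adjusted p 6.5e-10), Mirg (-3.61 ± 0.08, limma adjusted p 4.0e-12) and Rian (-3.06 ± 0.07, limma adjusted p 6.1e-12), all 3 imprinted genes. Between regions over both ages 4 were higher in brain and 2 lower, where 4.20% of all tested genes were called. They were led by Dlx6os1 (5.08 ± 0.14), Six3os1 (3.30 ± 0.20) and Sox1ot (2.92 ± 0.16), each next to a gene of a forebrain or neural transcription factor. Of all 2304 long noncoding RNA genes tested, 1043 were called for age (45.3%), 878 lower and 165 higher. Of 14172 protein-coding genes 28.0% were called.

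Up to 3 tested genes whose log2 values correlated best with each member over the 12 libraries are given as a description; the libraries share their groups and scaling. For Rmst they were Pou5f2, Osbpl9 and Hif3a (Pearson r 0.995, 0.990 and 0.990). For Sox2ot they were Tnik, Cdv3 and Pgap1 (0.986, 0.979 and 0.975). For Pantr1 the closest were Mpped1 and Otx1 (0.964 and 0.963). For Miat they were Zfp945, Napb and Kdm7a (0.984, 0.953 and 0.945), and for Neat1 Dock1, Acbd3 and Xpo6 (0.963, 0.955 and 0.946). For Malat1 they were Tro, Rsbn1l and Usp33 (0.956, 0.954 and 0.951), and these fell to 0.855, 0.835 and 0.858 over the 11 libraries without E13.5 spinal cord replicate 3. Without it the values for the genes most like the other members were 0.943 to 0.994.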

How the data were processed

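Stranded total RNA-seq libraries of sorted Pdgfra/GFP+ cells were mapped by the authors to mm10 with STAR 2.5.0a and counted over GENCODE M8 with featureCounts 1.5.0-p1, with reads of several loci shared out and rounded; the strand setting of the counting is not given in the sources used here. The deposited values are CPM, scaled by the authors. In 3 of the 12 columns they sum to more than CPM values can and are handled as a scaled signal, per the file headers the same measure. All values (100%) were whole multiples of 1 read (tolerance 0.01), and reads were recovered from these steps. TMM factors from the recovered reads equalled the deposited scaling in 9 libraries, and the deposited factors were 16.3%, 13.1% and 13.1% higher in P7 brain replicates 1, 2 and 3.

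A gene was tested if 3 or more libraries had 0.7 CPM or more (18319 genes), and was fitted on log2(CPM + 0.5) in limma 3.58.1 with an intensity trend, 1 mean per group, in place of the authors' voom, since the deposited unit is CPM. P-values were adjusted by Benjamini-Hochberg over all tested genes. Ratios of paired genes were tested by exact two-sided permutation within region or age. On simulated data of P7 minus E13.5 over both regions, 200 of 200 genes changed 4-fold were recovered among 18319, with 0 false calls. The changed genes were drawn above a minimum level, and no simulated library stood apart from the rest. The simulation therefore does not show how changes near 2-fold, low genes or the other comparisons fare. Replicates are pools of animals.

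The members and lists were chosen with earlier results of these data known. Values are named for all members, for Sox2 and Pou3f3, for the 3 called genes of largest change in a list and for the 3 genes most like a member; some genes that this rule names are not reported here. Rows of the members' loci with a mean of at least 0.5 CPM and the antisense genes were chosen after their values were seen. Of the 29 listed other RNAs, 27 matched a row. Alternatives were other pseudocounts, filters, scalings and tests (limma-voom, edgeR 4.0.16 and DESeq2 1.42.0 on the recovered reads), replicate blocks, P7 replicates averaged and each library left out.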

Additional observations from a re-analysis of the deposited data

Results flagged for a closer look

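The region difference of Sox2ot changed with age, by a test of the difference itself. Brain minus spinal cord was 2.28 at E13.5 and -0.95 at P7 on the log2(CPM + 0.5) scale, and the change was -3.24 ± 0.36 (limma, Benjamini-Hochberg adjusted p 3.9e-05), where 16.3% of all tested genes were called. It ranged from -3.45 to -2.84 when each library was left out in turn and was called each time. At P7 all 3 spinal cord libraries (127 to 151 CPM) lay above all 3 brain libraries (69.0 to 80.7 CPM), and at E13.5 all 3 lay below. The change is not particular to Sox2ot. For Sox2, which lies within its intron, it was -1.73 ± 0.17 (limma adjusted p 1.7e-05) and was called. Markers of myelinating oligodendrocytes, at 1926 to 4533 CPM in P7 brain and 20387 to 27366 CPM in P7 spinal cord, differed between the same groups. OPC markers summed to 822 to 1454 CPM in E13.5 brain and 529 to 805 CPM in E13.5 spinal cord. Of these 8 markers 5 were called for the interaction, in the direction of Sox2ot. The part of these cell types in the result was not tested.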

How the results depend on the processing

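The calls of Rmst with age, of Sox2ot with age in spinal cord and between regions at E13.5, and of Pantr1 between regions at E13.5 held under every alternative run. The number of members called between regions at P7 was 1, 0 with P7 replicates 1 and 2 averaged, and 0 to 3 leaving out single libraries. For the interaction of region and age it was 1, 2 under median-ratio rescaling, quantile normalization, averaged P7 replicates and TMM rescaling without E13.5 spinal cord replicate 3 (chosen after seeing the data), and 1 to 3 leaving out single libraries. The causes were not tested.

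The log2 ratio of Neat1 to Malat1 between regions was -0.46 with P7 replicates averaged and -0.49 with the replicate block, and ranged from -0.65 to -0.35 leaving out single libraries. With age it ranged from -0.27 to 0.031. Between regions Sox2ot to Sox2 ranged from -0.67 to -0.39 and Pantr1 to Pou3f3 from 0.021 to 0.25. Signs that turned belonged to changes that were not called. For Malat1 with age over both regions they were 0.073 (TMM), 0.0039 (median ratio), 0.19 (quantile) and 0.043 (voom), and between regions over both ages 0.086, 0.061, 0.25 and 0.053. Miat with age in brain was 0.082 under TMM and 0.083 under median-ratio rescaling. With the replicate block within each age Pantr1 over both regions was 0.21, and in spinal cord Malat1 was -0.27 and Neat1 -0.028. Rmst was 0.17 for the interaction with P7 replicates averaged. With TMM and without E13.5 spinal cord replicate 3, Pantr1 with age was 0.043, Miat in brain 0.082, Malat1 -0.37 in spinal cord, -0.36 between regions at E13.5 and 0.25 for the interaction, and Neat1 -0.070 in spinal cord. Leaving out single libraries, Malat1 ranged from -0.34 to 0.22 with age over both regions, -0.37 to 0.75 in spinal cord, -0.33 to 0.23 between regions, -0.36 to 0.77 at E13.5 and -1.07 to 0.055 for the interaction. Neat1 ranged from -0.070 to 0.49 with age in spinal cord and -0.43 to 0.13 between regions at E13.5. Miat ranged from -0.0065 to 0.24 between regions over both ages, and Rmst from -0.90 to 0.052 for the interaction.

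At E13.5 the deviations of same-numbered replicates correlated between regions at 0.31, 0.08 and 0.41. Their mean was 0.27, against -0.13 for replicates of different number. At P7 they correlated at 0.01 to 0.04, with a mean of 0.03 against -0.01. The sample labels do not say whether replicate numbers mark pairs, and the main fit holds no pairing. With the replicate number as a block within each age, 3 members in place of 2 were called with age in spinal cord (Miat added, -1.20), and the member counts of the other comparisons did not move. At P7 Rmst rests on 4 to 68 reads a library, so its fold is imprecise. In E13.5 spinal cord replicate 3 the recovered reads were the fewest, at 12.6 M.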
